A study of Mus musculus with 39 samples.

Results

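Parathyroid RNA libraries from mice differed widely in their content of fat cell transcripts, and the 10 libraries richest in them were set against the 10 poorest, out of 39 libraries in all. The 20 libraries were chosen by measured values: the mean of log2(CPM + 1) over Adipoq, Plin1, Cidec and Fabp4, called the fat score here, where CPM is the count per 1000000 counts of the library's own total. The sets are therefore not groups of the study, and the other 19 libraries belong to neither set. The choice used these 4 genes only, so between the sets they are described without a test, and the test covered the other genes that passed a filter on low counts.

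The parathyroid glands are small endocrine glands that secrete parathyroid hormone to hold blood calcium. The mice carried Bmal1 (gene symbol Arntl), a core circadian clock gene, with loxP sites around exon 8 on both alleles (from B6.129S4(Cg)-Arntltm1Weit/J), in the control group too. Littermates without Cre are called WT (Bmal1flox/flox, 21 libraries), and those with Cre driven by a human PTH promoter (from 129;FVB-Tg(PTH-cre)4167Slib/J) are called KO (PTHcre;Bmal1flox/flox, 18 libraries). Each library pooled the glands of 2 male mice aged 11 weeks, taken at 1 of 6 zeitgeber times (ZT, hours after lights on) 4 h apart. Cre was directed at parathyroid cells, so fat cells in the dissected tissue are not its labelled target.

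Adipocytes store triglyceride in a lipid droplet coated by perilipins and release fatty acids and hormones such as adiponectin and leptin. White adipocytes hold 1 large droplet and store energy, whereas brown adipocytes hold many mitochondria and burn fuel for heat through the uncoupling protein UCP1. Both kinds share most genes of fat uptake, storage and release, and a smaller number of genes tells them apart. White and brown fat both occur in the neck, and fat lies next to the glands.

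Libraries held 38111766 to 68938704 counts, with 16883 to 20184 genes detected, and the sets overlapped in depth (38111766 to 61771052 counts in the fat-rich, 42777465 to 67311366 in the fat-poor). Counts over the whole Arntl gene, which do not isolate the deleted exon, were 2.01 to 40.4 CPM in WT and 8.17 to 33.1 CPM in KO and so do not check the genotype labels. Parathyroid hormone, Pth, which marks the labelled tissue, took 9.53 to 19.1% of the counts in the fat-rich and 8.38 to 13.1% in the fat-poor libraries. In such bulk tissue, fewer cells of a type and less RNA per cell cannot be told apart.

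The fat score ran from 2.03 to 3.09 (median 2.48) in the fat-poor libraries, from 3.10 to 4.27 in the 19 others and from 4.43 to 6.37 (median 4.70) in the fat-rich libraries. At the lower edge, the KO ZT4 replicate 2 library (3.09) was in the fat-poor set and the WT ZT8 replicate 2 library (3.10) outside it. At the upper edge, the KO ZT0 replicate 1 library (4.43) was in the fat-rich set and the WT ZT20 replicate 3 library (4.27) outside it. The fat-poor edge thus cut a continuous run of scores. Above the rest stood 3 libraries, KO ZT20 replicate 2 (5.73), WT ZT0 replicate 1 (6.22) and KO ZT8 replicate 3 (6.37). Counts for the main lists of fat genes are also given without them.

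**Figure D1:**
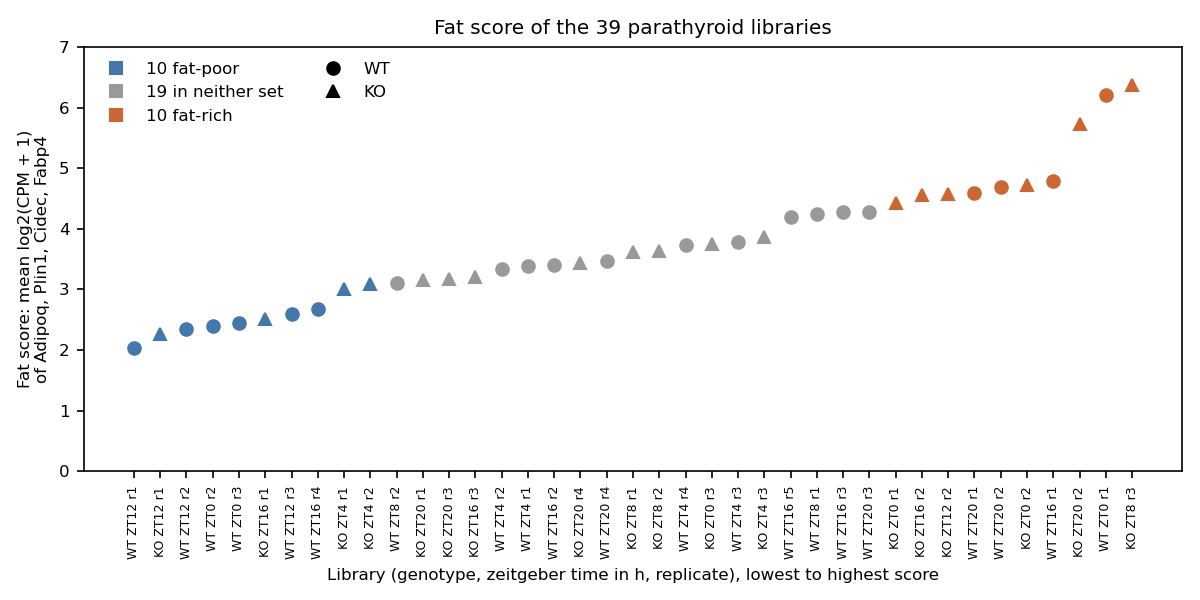
The fat score (mean log2(CPM + 1) of Adipoq, Plin1, Cidec and Fabp4, vertical axis) is plotted for each of the 39 libraries, ordered from lowest to highest, with circles for WT and triangles for KO. The 10 fat-poor libraries (blue) end at 3.09, the 10 fat-rich libraries (orange) start at 4.43, and 3 libraries reach 5.73 to 6.37.

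Both genotypes were in both sets. The fat-rich set held 4 WT and 6 KO libraries, and the fat-poor set 6 WT and 4 KO. Scores spanned 2.03 to 6.22 (median 3.47) over the 21 WT libraries and 2.26 to 6.37 (median 3.62) over the 18 KO libraries, so the genotypes overlapped over nearly the whole range. The sets were less even in time. Of the 5 libraries taken at ZT12, 4 were fat-poor and 1 was fat-rich. At ZT20, 3 of 8 libraries were fat-rich and 0 fat-poor, and at ZT4, 2 of 7 were fat-poor and 0 fat-rich. Scores also differed between replicates of 1 group: the 3 WT ZT0 libraries had 2.40, 2.45 and 6.22.

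Each of the 4 scoring genes was higher in the fat-rich than in the fat-poor libraries. Adiponectin, Adipoq, an adipocyte hormone, was at 2.39 to 6.89 CPM (median 3.43) in the fat-poor and at 16.8 to 73.0 CPM (median 22.8) in the fat-rich libraries. Plin1, which encodes the lipid droplet coat protein perilipin, was at 1.53 to 6.07 CPM (median 2.69) and at 9.64 to 55.1 CPM (median 15.2). Cidec, which fuses lipid droplets, was at 2.21 to 5.22 CPM (median 3.80) and at 12.3 to 74.6 CPM (median 22.5). Fabp4, a fatty acid carrier, was at 8.15 to 15.2 CPM (median 12.0) and at 40.4 to 168 CPM (median 62.6). For each of the 4 genes the sets did not overlap, which the choice of libraries by their mean made likely. The genes did not rank all libraries alike. Plin1 was at 9.64 CPM in WT ZT16 replicate 1, a fat-rich library, and at 11.6 CPM in WT ZT8 replicate 1, a library of neither set.

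Promoter bases are shown for 2 of the scoring genes, for leptin (Lep), the white fat gene of largest rise, and for Ucp1, the defining brown fat gene, since the comparison turns on genes like these moving together or apart. Each run is the 120 bases before the start of the RefSeq transcript (GRCm38.p6), 5′ to 3′ on the gene's strand, and capitals mark matches to TTNNGCAA, a form of the C/EBP motif, on either strand.
Adipoq (chr16:23146416-23146535, plus strand): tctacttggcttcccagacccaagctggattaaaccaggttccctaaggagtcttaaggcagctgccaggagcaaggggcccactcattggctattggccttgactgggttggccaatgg
Plin1 (chr7:79732777-79732896, minus strand): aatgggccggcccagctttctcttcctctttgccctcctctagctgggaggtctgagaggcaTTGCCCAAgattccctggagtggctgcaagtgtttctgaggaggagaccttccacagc
Lep (chr6:29060101-29060220, plus strand): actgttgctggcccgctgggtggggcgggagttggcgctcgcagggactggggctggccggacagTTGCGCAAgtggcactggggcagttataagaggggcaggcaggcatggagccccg
Ucp1 (chr8:83290228-83290347, plus strand): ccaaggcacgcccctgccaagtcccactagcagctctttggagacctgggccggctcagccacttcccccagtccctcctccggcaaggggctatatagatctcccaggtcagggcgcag
The Lep match began 55 bases and the Plin1 match 58 bases before the start, and the Adipoq and Ucp1 runs held none in these 120 bases. The 120 bases of Retn, Cfd and both Cidec promoters, which are not printed, held none either. Over 250 bases before the start, on both strands, TTNNGCAA was in 9.56% of all 32851 promoters in the table, in 8.08% of the 17061 promoters of tested genes, and in 15.5% (20 of 129) of the promoters of genes that rose in fat-rich libraries. TATAAA, searched on the gene's strand only, was in 7.59%, 4.66% and 12.4% of the same sets. In the 34 promoters of scoring, shared adipocyte and white fat genes, TTNNGCAA was in 14.7% (5) and TATAAA in 5.88% (2). The 129 promoters belonged to 102 of the 160 genes that rose, and a gene can have several promoters. A direct repeat of AGGTCA with a base of any kind between the copies, a form of the PPAR motif, was in 0.0335% of all promoters, 0.0528% of those of tested genes and 0 of those of the genes that rose. These matches are letters in a window and no evidence of binding.

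In the 10 against 10 comparison, with genotype as a covariate, 160 genes were higher in fat-rich libraries and 19 were lower at an adjusted p under 0.05 (edgeR quasi-likelihood test, Benjamini-Hochberg over 18654 genes). That was 0.858% of the genes tested for the rises and 0.102% for the falls. Rises were large, at least 2-fold for 133 of the 160, with a median log2 fold change of 1.39. No fall reached 2-fold, and the median of the 19 was -0.37. Over all genes tested the median was -0.0040. The sets did not overlap at all, in the direction of a rise, for 28 genes (0.150% of those tested) and, in the direction of a fall, for 0 genes. Of the 160 rises, 35 were on the lists of adipocyte genes, which had 106 tested members, and 120 were on none of the 25 lists. A gene can be on several lists, so the counts given below for single lists share genes. The count rested on single libraries: it was 66 without WT ZT0 replicate 1 and 337 without WT ZT20 replicate 1, and it was 54 without the 3 libraries of highest score and 35 without the ZT12 libraries, both left out after the data were seen. With time of day as a further covariate, 80 genes passed, 33 higher and 47 lower, and 30 of the 160 rises were still called.

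Of the genes that white and brown adipocytes share, 14 of 20 passed the test, all higher, and the list's median log2 fold change was 1.86. The number that passed was 8 without the 3 libraries of highest score (median 1.27) and 4 without the ZT12 libraries (median 1.73). Complement factor D, Cfd (adipsin), a protease secreted by adipocytes, was at 7.26 to 32.8 CPM (median 18.8) in fat-poor and at 52.6 to 371 CPM (median 108) in fat-rich libraries. The sets did not overlap, and the log2 fold change was 2.97 ± 0.39 (SE; edgeR adjusted p = 0.00049, 10 libraries in each set). Adipogenin, Adig, a small adipocyte membrane protein, was at 0.442 to 1.11 CPM (median 0.630) and at 1.83 to 11.4 CPM (median 5.07), again without overlap (2.94 ± 0.32, edgeR adjusted p = 4e-05). The fatty acid transporter Cd36 was at 3.52 to 11.6 CPM (median 6.54) and at 16.9 to 77.7 CPM (median 22.7), without overlap (2.25 ± 0.31, edgeR adjusted p = 0.00074). Plin4, another droplet coat protein, did not overlap either, at up to 14.0 CPM in fat-poor and from 16.9 CPM in fat-rich libraries (2.14 ± 0.31).

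The insulin-regulated glucose transporter Slc2a4 (GLUT4) had a smaller change, 1.12 ± 0.25 (edgeR adjusted p = 0.028), and its sets overlapped, with 5 of 10 fat-rich libraries above the highest fat-poor one. Trarg1, which takes part in GLUT4 trafficking, was at 0.935 to 2.24 CPM and at 2.19 to 17.0 CPM (2.02 ± 0.30). The activin receptor-like kinase Acvr1c rose by 2.15 ± 0.35 on the log2 scale, the triglyceride synthesis enzyme Dgat2 by 2.06 ± 0.35 and lipoprotein lipase, Lpl, which frees fatty acids from blood lipids, by 1.70 ± 0.32. The members that did not pass included both main triglyceride lipases of adipocytes, Lipe (0.76 ± 0.21, edgeR adjusted p = 0.097) and Pnpla2 (0.34 ± 0.12, edgeR adjusted p = 0.26), and the acyl-CoA synthetase Acsl1 (0.05 ± 0.13, edgeR adjusted p = 0.96). Acsl1 was at 69.3 to 146 CPM in fat-poor and 64.7 to 157 CPM in fat-rich libraries. Its sets covered the same range.

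Of the white fat genes, 4 of the 10 tested rose and 0 fell, and the list's median was 1.23. Without the 3 libraries of highest score 4 passed (median 0.96), and with time of day as a covariate 2 did (median 0.78). Leptin, Lep, the hormone that reports fat stores, was at 0.0468 to 0.787 CPM (median 0.498) in fat-poor and 0.609 to 14.2 CPM (median 3.10) in fat-rich libraries. All but 1 fat-rich library, WT ZT16 replicate 1 (0.609 CPM), stood above the highest fat-poor one. Its log2 fold change was 3.43 ± 0.52 (edgeR adjusted p = 0.0013), and with time of day as a covariate 3.14 (edgeR adjusted p = 0.099), when Slc7a10 did not pass either (1.56, edgeR adjusted p = 0.11). Resistin, Retn, an adipocyte hormone of mice, was at 0.421 to 2.33 CPM (median 1.21) and 3.87 to 23.5 CPM (median 7.22), without overlap (2.77 ± 0.37, edgeR adjusted p = 0.00032).

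Carbonic anhydrase 3, Car3, which is abundant in white fat and in muscle, was at 5.05 to 11.9 CPM (median 7.17) and 32.5 to 122 CPM (median 39.1). The sets were far apart, with a log2 fold change of 2.89 ± 0.30 (edgeR adjusted p = 4e-05). The amino acid transporter Slc7a10, a surface marker of white adipocytes, was at 0.322 to 0.573 CPM and 0.593 to 3.11 CPM, without overlap (1.82 ± 0.28, edgeR adjusted p = 0.0013). Sncg (1.35 ± 0.35), Tcf21 (1.11 ± 0.41), Enpp2 (0.98 ± 0.25), Npr3 (0.83 ± 0.30), Agt (0.15 ± 0.60) and Mest (0.03 ± 0.11) did not pass the test. The posterior Hox genes Hoxc8, Hoxc9 and Hoxc10, which mark fat of the trunk, were at 0 in nearly every library of both sets and, with Wfdc21, did not pass the filter on low counts.

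Of the brown fat genes, 3 of the 14 tested rose and 0 fell, and the median was 0.59. Without the 3 libraries of highest score 0 passed in edgeR (median 0.095), and with time of day as a covariate 1 did (median 0.38). Cidea, a droplet protein typical of brown adipocytes, was at 0 to 0.427 CPM (median 0.163) in fat-poor and 0.430 to 9.18 CPM (median 1.17) in fat-rich libraries. The sets did not overlap but touched (3.41 ± 0.64, edgeR adjusted p = 0.0092). Dio2, which activates thyroid hormone, was at 0.374 to 3.15 CPM (median 1.12) and 1.75 to 8.13 CPM (median 3.30), and 6 of 10 fat-rich libraries exceeded every fat-poor one (1.82 ± 0.35, edgeR adjusted p = 0.011). The proton channel gene Otop1 was at 0 to 0.322 CPM and 0.301 to 1.78 CPM (2.73 ± 0.50, edgeR adjusted p = 0.0065). Cidea, Dio2 and Otop1 did not pass without the 3 libraries of highest score (2.36, 1.44 and 2.32, edgeR adjusted p = 0.12, 0.14 and 0.093), whereas the 4 white fat genes did. Dio2 also did not pass without WT ZT0 replicate 1 alone (edgeR adjusted p = 0.051). Cidea and Otop1 were at low levels in the fat-poor libraries (up to 0.427 and 0.322 CPM). Without the 3 libraries of highest score their changes were still 2.36 and 2.32. The difference between the lists was not tested.

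Ucp1 itself did not pass the test. It was at 0 in 7 of 10 fat-poor and 4 of 10 fat-rich libraries, where a count of 0 allows up to 0.0870 to 0.157 CPM, depending on the library's depth (3 read pairs of 2 counts each, counting error only). Its highest values were 7.87 CPM in WT ZT0 replicate 1, a fat-rich library, 1.99 CPM in KO ZT0 replicate 3, a library of neither set, and 1.14 CPM in KO ZT0 replicate 2, a fat-rich one. The fitted log2 fold change of 4.60 ± 1.36 (edgeR adjusted p = 0.13) depends on how the zeros are handled. Prdm16, a regulator of brown fat identity, was at 14.0 to 26.0 CPM in fat-poor and 10.9 to 20.9 CPM in fat-rich libraries (-0.32 ± 0.09, edgeR adjusted p = 0.078). No fat-rich library was above the highest fat-poor one.

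Ebf2, an early brown fat regulator, was at 0.748 to 2.72 CPM and 1.15 to 9.39 CPM (edgeR adjusted p = 0.055). Other brown fat genes that did not pass were Lhx8 (0.84 ± 0.65), Kng2 (0.75 ± 1.14), Epsti1 (0.43 ± 0.50), Nrg4 (0.40 ± 0.23), Gk (0.00 ± 0.06), Ppara (-0.01 ± 0.08), Slc27a2 (-0.05 ± 0.15) and S100b (-1.09 ± 0.64). Gk, Ppara and Slc27a2 were at 11.9 to 16.4, 12.0 to 18.6 and 4.04 to 10.4 CPM in the fat-poor libraries. Mest of the white fat list was at 7.07 to 12.0 CPM there. From which cells the counts of these genes and of Prdm16 came was not tested, and the list medians include them. Elovl3 and Zic1 did not pass the filter, at no more than 0.10 CPM in any library of either set. Among the brown fat genes that muscle also uses, 1 of 6 tested rose: Cox8b, a cytochrome oxidase subunit, was at 0.187 to 2.17 CPM (median 1.00) and 1.10 to 13.8 CPM (median 4.56), with 9 of 10 fat-rich libraries above every fat-poor one (2.54 ± 0.40, edgeR adjusted p = 0.0018). Ucp3 (1.89 ± 0.51), Fabp3 (0.84 ± 0.50), Plin5 (0.53 ± 0.21), Cox7a1 (0.24 ± 0.26) and Ppargc1a (-0.25 ± 0.10) did not, and Cpt1b was not tested.

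**Figure D2:**
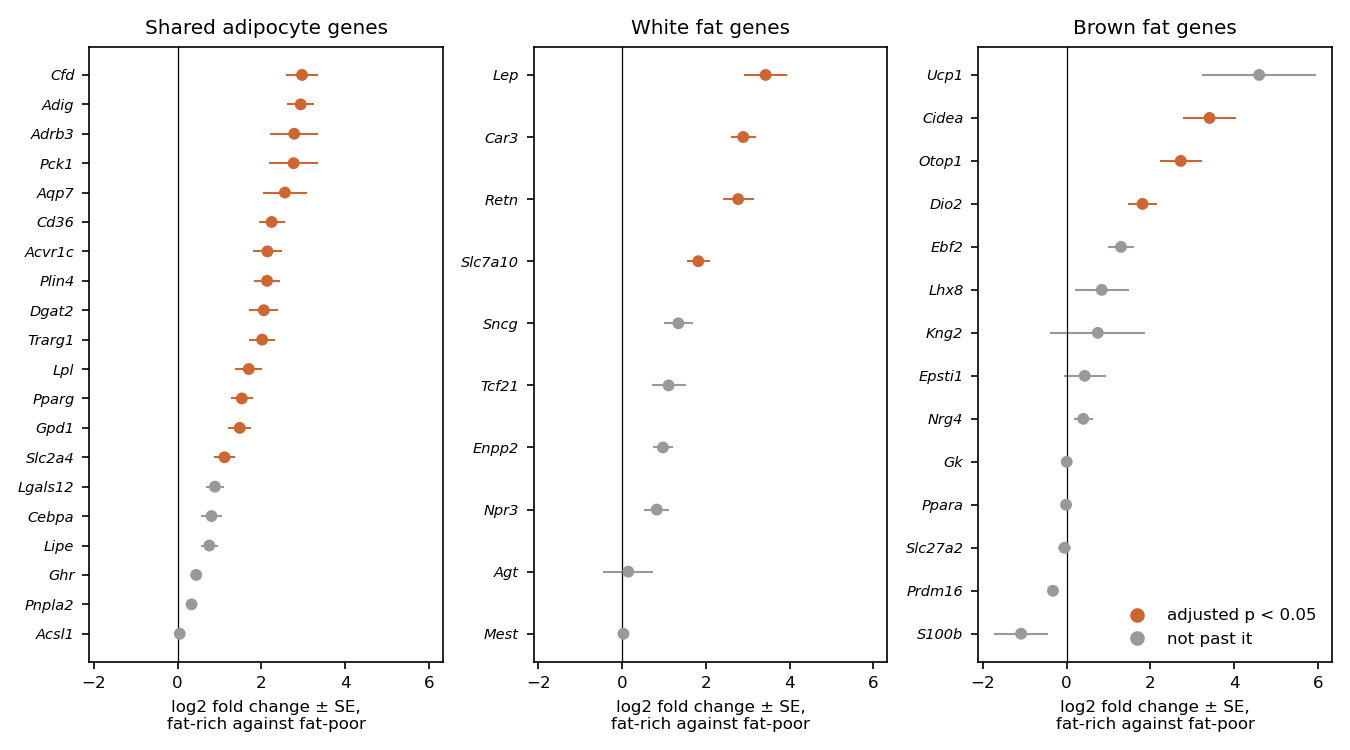
The log2 fold change of fat-rich against fat-poor libraries (horizontal axis, points with bars of ± 1 SE) is plotted for the tested genes of 3 lists, in orange where the edgeR adjusted p was under 0.05 and in grey where it was not. Orange points make up 14 of 20 shared adipocyte genes, 4 of 10 white fat genes and 3 of 14 brown fat genes, and Ucp1 has the widest bar of the genes shown.

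The libraries of highest fat score differed from each other in some of the brown fat genes. WT ZT0 replicate 1 (score 6.22) and KO ZT8 replicate 3 (score 6.37) had 14.2 and 13.5 CPM of Lep and 122 and 120 CPM of Car3. Ucp1 was at 7.87 CPM in the first and 0.356 CPM in the second, and Cidea at 9.18 and 2.43 CPM. Cox8b, which muscle also uses, was at 13.8 and 6.28 CPM. Dio2 (8.13 and 3.79 CPM) and Ebf2 (9.39 and 4.95 CPM) were higher in the first too. Otop1 was level (1.78 and 1.75 CPM), and Prdm16 (12.4 and 20.9 CPM) and Nrg4 (4.85 and 6.18 CPM) were higher in the second. Of the white fat genes, Retn was higher in the second, at 7.77 and 23.5 CPM. Each is a single library, so these differences have no replicate check, and the libraries differ in genotype and time.

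**Figure D3:**
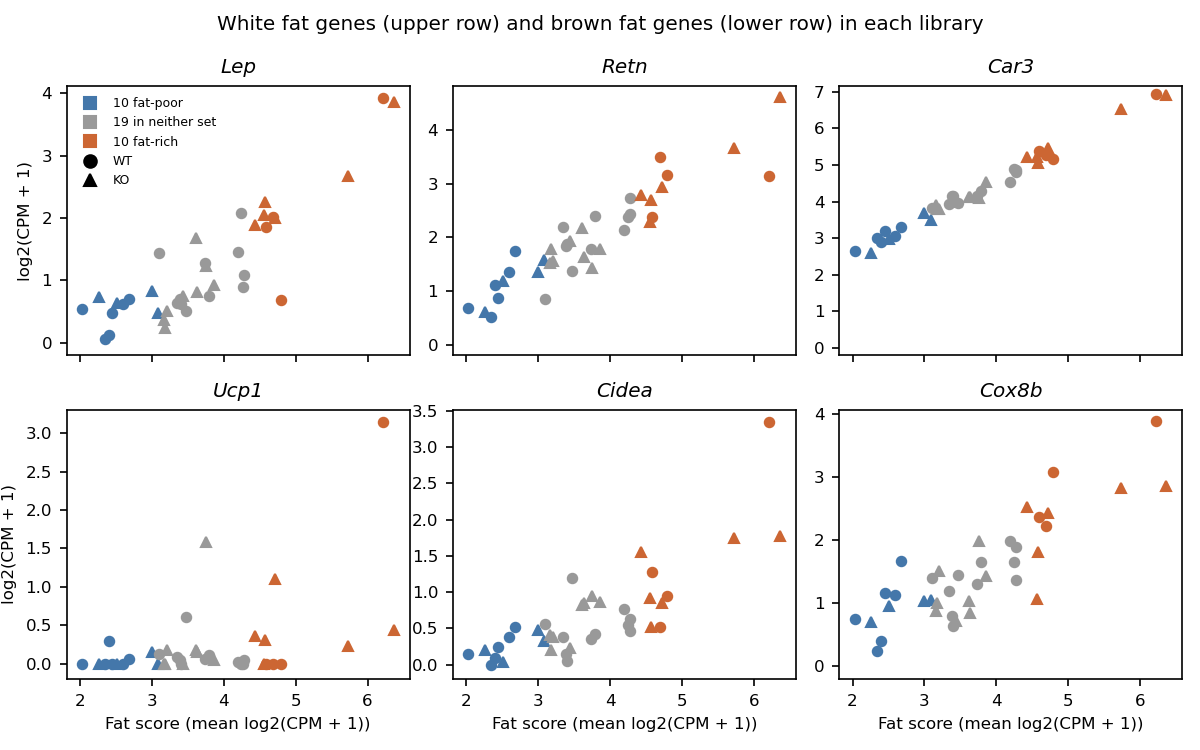
Levels of 3 white fat genes (Lep, Retn, Car3, upper row) and 3 brown fat genes (Ucp1, Cidea, Cox8b, lower row), as log2(CPM + 1), are plotted against the fat score of each of the 39 libraries, with circles for WT, triangles for KO and colours for the sets. Cox8b is from the list of brown fat genes that muscle also uses. Car3 follows the score closely, whereas Ucp1 is near 0 in most libraries and reaches 7.87 CPM in 1 fat-rich WT library.

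Genes of lipid synthesis rose in part. Of 21 tested, 9 rose and 0 fell, with a median of 0.46. The number that rose was 7 without the 3 libraries of highest score (median 0.27), 3 with time of day as a covariate and 2 without the ZT12 libraries. Stearoyl-CoA desaturase 1, Scd1, which makes monounsaturated fatty acids, was at 109 to 345 CPM (median 154) in fat-poor and at 473 to 1788 CPM (median 853) in fat-rich libraries, without overlap (2.43 ± 0.28, edgeR adjusted p = 0.00012). Thrsp, a lipogenic regulator, was at 4.31 to 16.3 CPM and 23.8 to 111 CPM, also without overlap (2.47 ± 0.33). Fatty acid synthase, Fasn, was at 180 to 325 CPM and 203 to 935 CPM, with 9 of 10 fat-rich libraries above every fat-poor one (1.13 ± 0.18, edgeR adjusted p = 0.0030). Agpat2, an enzyme of triglyceride synthesis, changed by 0.69 ± 0.12. Of 11 tested genes of lipid droplets and lipolysis 3 rose, the droplet coat genes Plin4 and Plin2 (0.43 ± 0.10) and the glycerol channel Aqp7 (2.56 ± 0.53). Of 15 genes of fatty acid oxidation 0 passed in edgeR, and the median was -0.031, with Cpt1a, the entry enzyme of mitochondrial oxidation, at -0.25 ± 0.16.

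Of 11 adipocyte transcription factors 1 rose, Pparg, the master regulator of adipocytes, at 0.725 to 2.61 CPM in fat-poor and 2.11 to 10.8 CPM in fat-rich libraries (1.53 ± 0.27, edgeR adjusted p = 0.0040). Cebpa, its partner, was at 6.83 to 17.0 CPM and 10.6 to 40.8 CPM and did not pass (0.81 ± 0.25, edgeR adjusted p = 0.16). Of 13 tested genes on the list of adipocyte secreted factors 6 rose, Cfd, Retn and the retinol carrier Rbp4 (2.80 ± 0.32) among them. Nnmt (2.55 ± 0.29), another of the 6, encodes an intracellular methyltransferase and not a secreted factor. Of 15 insulin and adrenergic receptor genes and their partners 5 rose. The beta-3 adrenergic receptor, Adrb3, which drives lipolysis in mouse fat, was at 0 to 1.46 CPM (median 0.270) and at 1.07 to 10.8 CPM (median 2.73), a change of 2.79 ± 0.57 (edgeR adjusted p = 0.021). Without WT ZT0 replicate 1, Adrb3 and Aqp7 did not pass (edgeR adjusted p = 0.063 and 0.081). Ptger3, a prostaglandin receptor that restrains lipolysis, was at 0.320 to 1.24 CPM and 2.51 to 9.87 CPM, without overlap (2.42 ± 0.27).

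Among genes of at least 1 CPM on average, the 10 largest rises were Tmem45b, Lep, Pon1, Cfd, Adig, Hp, Car3, Orm1, Adrb3 and Retn. Tmem45b, which encodes a membrane protein, was at 0.0935 to 1.86 CPM (median 0.435) and 2.12 to 18.9 CPM (median 4.86), the largest change of the 10 (3.60 ± 0.49, edgeR adjusted p = 0.00050). Pon1, an esterase carried on blood lipoproteins, was at 0.463 to 1.50 CPM and 3.69 to 18.1 CPM (3.08 ± 0.31). The plasma proteins haptoglobin, Hp (2.91 ± 0.45), and orosomucoid, Orm1 (2.89 ± 0.38), rose too, with Hp at 1.66 to 12.5 CPM and 12.8 to 101 CPM. For each of Tmem45b, Pon1, Hp and Orm1 the sets did not overlap.

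The falls were small. Elfn1, a synaptic adhesion gene, was at 6.97 to 20.7 CPM (median 11.9) in fat-poor and 4.35 to 10.7 CPM (median 7.32) in fat-rich libraries (-0.81 ± 0.17, edgeR adjusted p = 0.025). Hcn2, a pacemaker channel gene, was at 4.77 to 9.45 CPM and 2.36 to 6.79 CPM (-0.79 ± 0.16, edgeR adjusted p = 0.021). Both genes overlapped between the sets. Smaller falls were those of Myh14 (-0.63), Adam23 (-0.55), Ogdhl (-0.53), Ckmt1 (-0.48), Efr3b (-0.46), Epn3 (-0.46) and Prob1 (-0.37). The sets overlapped for each of these too. Of the 20 fits that left out 1 library each, Elfn1 passed in 15, Hcn2 in 18, and Myh14 and Adam23 in 4 each. Once scores of thyroid, lymphoid and muscle genes were added as covariates, 0 falls passed in edgeR while 55 rises did, and the changes were -0.37 for Elfn1 and -0.48 for Hcn2.

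Markers of other cells were present in both sets. Thyroid follicle genes had a median log2 fold change of -2.21 over 12 tested genes, 11 of them negative, and 0 passed in edgeR. With time of day as a covariate 6 of the 12 were lower past the threshold, with a median of -6.94. Their summed level was 705 to 53655 CPM (median 26316) in fat-poor and 5.16 to 14213 CPM (median 462) in fat-rich libraries. The sodium iodide symporter Slc5a5 was at 0.561 to 92.7 CPM and 0.0397 to 19.2 CPM (-2.39 ± 1.01, edgeR adjusted p = 0.39), and Nkx2-1, the thyroid transcription factor, was at 0 in 4 fat-rich libraries and 0 fat-poor ones. The part of thyroid content in the 19 falls was not tested beyond the covariate fit above.

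Thymus and lymphoid genes were at a summed 7.31 to 1654 CPM (median 60.2) in fat-poor and 7.27 to 663 CPM (median 16.1) in fat-rich libraries, and 0 of 14 passed in edgeR (median -0.28). Skeletal muscle genes, some of which brown fat shares, were at 128 to 613 CPM (median 208) and 184 to 548 CPM (median 252), and 0 of 12 passed. Blood genes were at 30.5 to 260 CPM and 51.0 to 413 CPM. Endothelial genes were at 84.2 to 286 CPM and 82.3 to 195 CPM, 0 of 12 passed, and the median was -0.058.

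Stromal genes rose in part. Of 12 fibroblast genes 2 rose and 11 had a positive fold change, with a median of 0.97: Mfap5, a microfibril protein, was at 1.60 to 5.22 CPM and 4.40 to 19.4 CPM (1.48 ± 0.25, edgeR adjusted p = 0.0034), and decorin, Dcn, at 46.0 to 166 CPM and 120 to 446 CPM (1.17 ± 0.26, edgeR adjusted p = 0.039). The summed fibroblast level was 1337 to 2360 CPM (median 1790) and 1337 to 4621 CPM (median 2604). Of 11 adipose progenitor genes 2 rose, Pi16 (1.62 ± 0.28), which marks early progenitors, and Cd55 (1.18 ± 0.26), whereas Pdgfra (0.78 ± 0.24, edgeR adjusted p = 0.16) did not pass. Of 12 macrophage genes 1 rose, Cd14 (0.79 ± 0.17, edgeR adjusted p = 0.028), and all 12 had a positive fold change (median 0.49). Of the 20 fits that left out 1 library each, Dcn passed in 7, Cd55 in 11 and Cd14 in 12, and Plin2 and Slc2a4 among the fat genes in 8 and 13.

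**Figure D4:**
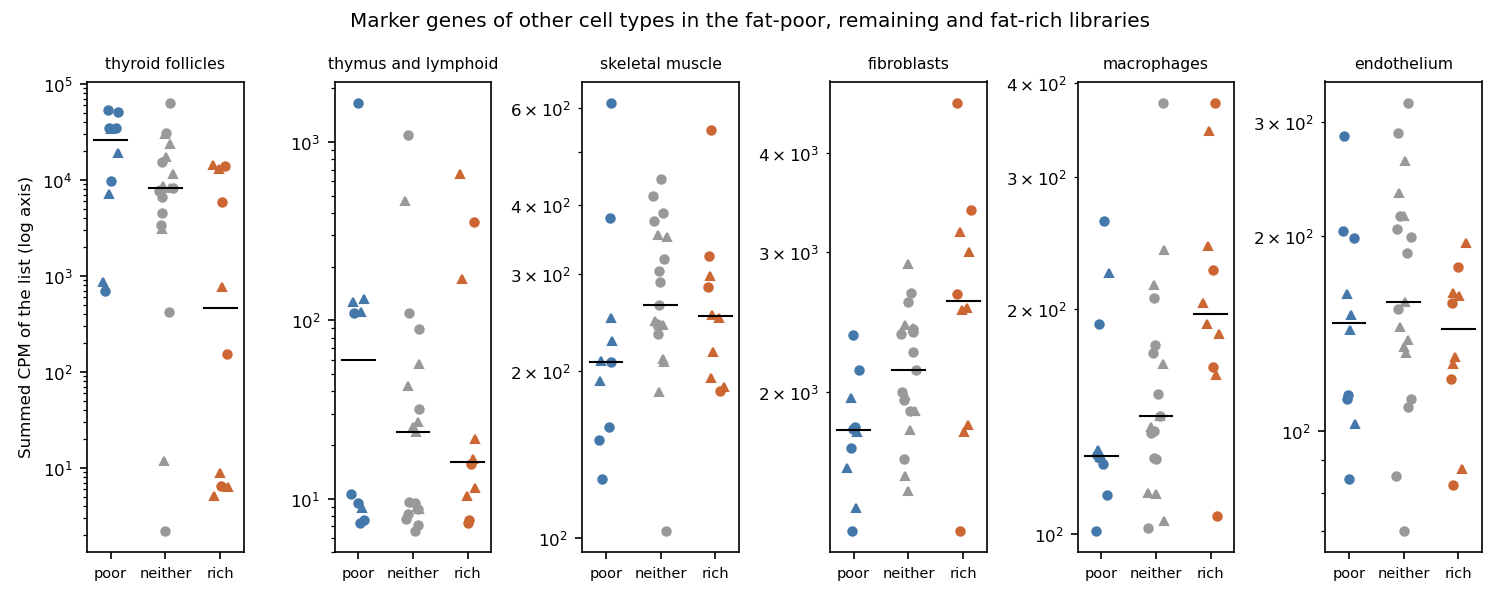
The summed CPM of 6 marker lists (log axis) is plotted for each library by set (10 fat-poor, 19 in neither set, 10 fat-rich), with circles for WT, triangles for KO and a bar at the median. Thyroid follicle genes have a median of 26316 CPM in fat-poor and 462 CPM in fat-rich libraries, fibroblast genes 1790 and 2604 CPM, and the sets overlap in all 6 lists.

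Of 12 parathyroid genes 0 passed in edgeR, with a median of -0.085, and the log2 fold change was 0.23 ± 0.16 for Pth and -0.19 ± 0.10 for Casr, the calcium-sensing receptor. Clock genes did not pass either (0 of 17, median -0.19), although the sets differ in time, nor did immediate early genes (0 of 10). For the interaction of set and genotype, a test added after the data were seen, 0 genes passed in edgeR, with a smallest adjusted p of 0.15 and 539 genes under an unadjusted p of 0.05.

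The same fat score was also examined in the 19 libraries of neither set, which the 10 against 10 comparison did not use. Their scores spanned only 3.10 to 4.27, and 2 genes passed a test of the slope on the fat score, 0.0107% of those tested. These were Car3, with a log2 change of 0.91 per unit of score (edgeR adjusted p = 7.25e-05), and Cd36, with 0.86 (edgeR adjusted p = 0.036). Of the 160 genes that rose between the sets, 155 (96.9%) had a positive slope here, against 50.9% of all genes tested, and 77 (48.1%) had an unadjusted p under 0.05, against 14.6% of all. Of the 19 that fell, 0 had a positive slope and 14 had an unadjusted p under 0.05. The slope was on the score that chose the sets, and genes of 1 tissue vary together. The difference between these shares was therefore not tested. The slopes of all 14 lymphoid genes were also positive in these libraries, with a median of 4.56, and 0 passed in edgeR. The highest lymphoid sum among them, 1096 CPM, was in WT ZT16 replicate 3, which had the score 4.27, and its part in the slopes was not tested.

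**Figure D5:**
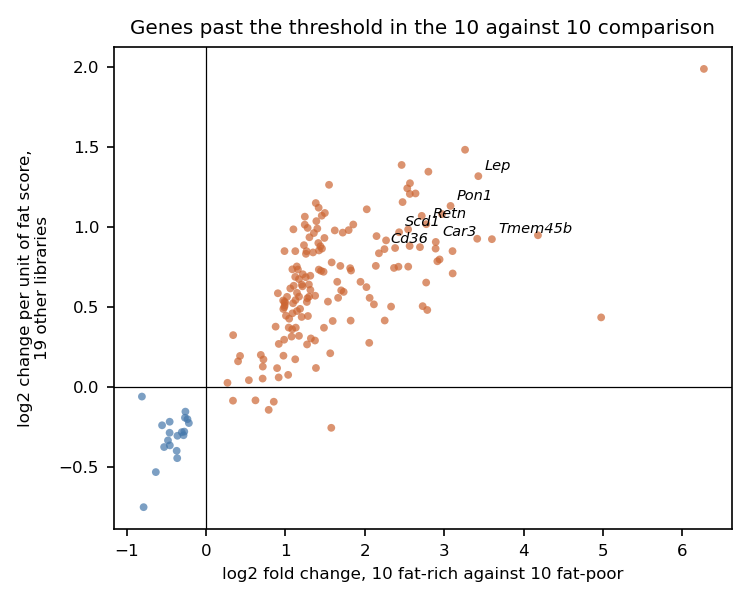
For each gene past the threshold between the sets, the log2 fold change of 10 fat-rich against 10 fat-poor libraries (horizontal axis) is plotted against the log2 change per unit of fat score in the 19 other libraries (vertical axis), with rises in orange and falls in blue. Of 160 rises, 155 lie above 0 on the vertical axis, and all 19 falls lie below it.

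In the study's own comparison of genotypes over all 39 libraries, with time as a factor, 1435 genes (7.69% of those tested) differed between KO and WT in edgeR, and among 48 tested genes of the scoring, shared, white and brown lists 1 did. That gene was Prdm16, at 13.9 to 26.0 CPM (median 19.0) in KO and 10.9 to 21.1 CPM (median 15.2) in WT, a log2 difference of 0.22 ± 0.07 (edgeR adjusted p = 0.047). The ranges overlapped broadly. It did not pass when any of 28 single libraries was left out. The 4 scoring genes did not pass by genotype (edgeR adjusted p = 0.79 to 0.98).

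By time of day, 368 genes (1.97% of those tested) differed in edgeR, and 3 of the 48 fat genes did: Ucp1 (edgeR adjusted p = 0.0034), Acsl1 (0.011) and the imprinted gene Mest (0.035). Ucp1 was at 0 to 7.87 CPM (median 0.714) in the 6 libraries at ZT0 and at no more than 0.525 CPM in any library at another time. Of these 6, 3 were fat-rich, among them WT ZT0 replicate 1 with 7.87 CPM. WT ZT0 replicates 2 and 3, both fat-poor, had 0.223 and 0 CPM, and KO ZT0 replicate 3, of neither set, had 1.99 CPM. The time fit had no term for the fat score, so fat content and time were not separated for Ucp1. At ZT12 it was at 0 in 4 of 5 libraries. Acsl1 had its highest medians at ZT4 (119 CPM) and ZT8 (119 CPM) and its lowest at ZT16 (82.1 CPM), and Mest its highest at ZT8 (10.4 CPM) and its lowest at ZT16 (7.12 CPM). Without the 3 samples that carry 2 different times in the labels, the count of fat genes that passed was 1. The 4 scoring genes did not pass by time in edgeR (adjusted p = 0.25 to 0.46).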

How the data were processed

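RNA was sequenced from pooled parathyroid glands of 2 male mice per sample, with a stranded total RNA kit, per the labels. The deposited values are raw gene counts. Tools listed in the submitters' processing notes are featureCounts 2.0.1, STAR 2.7.8a and DESeq2 1.30.1, with the build mm10 and no role for each. Annotation and strand setting are not given in the sources read, and overlapping genes may share reads. Small counts (1 to 10) were even in 89.6% of cases, a pattern that counting each mate of a read pair gives, so counts overstate the number of fragments. Of 27179 gene IDs, 25275, with 98.0% of the counts, matched the RefSeq gene table of GRCm38.p6, used for symbols.

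Times came from the titles. For 3 samples titled ZT16 another label gives 20, and they were grouped by title. CPM levels are on column totals. Tests used edgeR 4.0.16 in R 4.3.3 (quasi-likelihood, robust, with trimmed mean of M-values factors of 0.839 to 1.10, genes filtered by filterByExpr at a minimum count of 10), with Benjamini-Hochberg adjustment over all genes tested and a threshold of 0.05. The sets were compared with genotype as covariate. The slope on the score was fitted in the 19 other libraries with genotype, the genotype effect over 39 libraries with time as a factor, and time with genotype. The SE of a log2 fold change is computed from the fold change and its test. P-values measure the spread between pools of mice, and since the libraries were chosen from the same data, those between the sets describe the sets and not a treatment.

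The members and the 25 gene lists (302 of 303 entries matched, all but Hbb-bt) were chosen with earlier results of these data known. Named were the scoring, white and brown fat genes, up to 6 shared adipocyte genes and up to 4 of each other list by smallest p, and the 10 largest rises and falls among called protein-coding genes that averaged at least 1 CPM. The shared adipocyte genes Dgat2, Lpl, Lipe, Pnpla2 and Acsl1 were named after their values were seen. Results of 1 gene that the rule names are not reported here. On simulated counts with 200 of 18661 genes changed, the comparison of the sets found 75% of genes changed by 1 log2 unit and 92% of those changed by 2, with 10 false calls among 177. The changed genes were drawn above a minimum mean count, in equal numbers up and down, and each gene was simulated independently. These shares thus do not cover the lowest genes or genes that vary together. Alternatives included DESeq2 1.42.0. Promoter sequences came from RefSeq (GRCm38.p6).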

Additional observations from a re-analysis of the deposited data

Results flagged for a closer look

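The fat score of KO ZT20 replicate 2 was 5.73, against 3.16 to 3.44 in the other 3 libraries of its group, a gap of 0.893 of the group's whole range. The mean log2(CPM + 1) of the brown fat genes in the same library was 2.02, against 1.42 to 1.47 in the other 3, a gap of 0.918 of the range. Both were flagged as a library far from the others of its group. The rule was applied to 16 sets of values, and by chance it marks about 1 in 20 of them. Groups of fewer than 4 libraries were not examined and could not be flagged. Among those, KO ZT8 replicate 3 had a fat score of 6.37, against 3.62 and 3.63 in its group. WT ZT0 replicate 1 had 6.22, against 2.40 and 2.45.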

How the results depend on the processing

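The count of 179 genes between the sets was 513 with DESeq2 (400 higher, 113 lower), 80 with time of day added (33 higher, 47 lower), 55 with thyroid, lymphoid and muscle scores added (0 lower), 46 for the 5 highest against the 5 lowest, 454 for 13 against 13 and 1077 with the score as a linear term over 39 libraries. Chosen after seeing the data, leaving out the 3 libraries of highest score gave 54 and leaving out ZT12 gave 35. Leaving out each library gave 66 to 337, the lowest without WT ZT0 replicate 1 and the highest without WT ZT20 replicate 1. It was also lower by over 1.5 times without WT ZT12 replicate 1 (118), WT ZT12 replicate 3 (104), WT ZT0 replicate 2 (103), WT ZT20 replicate 2 (95) and KO ZT12 replicate 1 (84). With the replicate number as a replicate block it was 104. Same-numbered samples did not deviate together in the median (r 0.0081 over 183 pairs, -0.573 to 0.510). Other pairs had a median r of -0.0050 (510 pairs, -0.537 to 0.644). No general pairing by number was thus seen, but a median cannot exclude a pairing of some samples. Of the 160 rises, 158 were still called with DESeq2, 30 with time of day and 53 with the tissue scores. In the 19 middle libraries the 2 calls became 269 with DESeq2, 1 with the tissue scores and 1 to 18 without single libraries, the 18 without WT ZT20 replicate 3. The count of 1 fat gene called by genotype was 0 with no filter on low counts, with the replicate block and without the 3 samples of 2 times, and 0 to 1 without single libraries. The count of 3 fat genes called by time was 7 with DESeq2, 1 without those 3 samples and 2 to 4 without single libraries. Of 4553 values of 127 named genes under alternatives, 4171 kept their side of the threshold, 314 no longer passed and 68 newly passed. Where the main or the alternative value passed, 0 reversed direction. Reversals between values that passed in neither fit are among the 4171 and were not counted. The cause of these changes was not tested. At this depth a gene at 0 may still be present at up to 0.0870 to 0.157 CPM.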

Other observations

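Some called genes lay outside the lists and the naming rule and are given as values, chosen after they were seen. Cyp2e1, a detoxifying enzyme of liver and fat, rose by 2.57 ± 0.40 on the log2 scale (edgeR adjusted p = 0.0024), with a mean of 24.6 CPM over the 39 libraries. Ifi27l2a, an interferon-induced gene, rose by 2.64 ± 0.39 (edgeR adjusted p = 0.0015) at a mean of 39.2 CPM. Mcpt4, a protease of connective tissue mast cells, rose by 2.69 ± 0.59 (edgeR adjusted p = 0.027) at a mean of 1.06 CPM. Ces1f, a carboxylesterase gene, rose by 2.57 ± 0.30 (edgeR adjusted p = 6.6e-05) at a mean of 1.63 CPM. In the 19 other libraries the slopes per unit of fat score were 1.27 for Cyp2e1, 1.21 for Ifi27l2a, 0.87 for Mcpt4 and 1.21 for Ces1f, and the 4 genes did not pass there in edgeR.

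The succinate receptor gene Sucnr1 had a log2 fold change of 4.98 ± 0.95 (edgeR adjusted p = 0.010) at a mean of only 0.0971 CPM, and Lncbate1, a long noncoding RNA named for brown adipose tissue, 4.18 ± 0.88 (edgeR adjusted p = 0.022) at a mean of 0.0560 CPM. At such levels most libraries hold few counts, and a gene can pass the filter on low counts through a few high libraries alone. Fits without single libraries are not given for Sucnr1 and Lncbate1. Their p-values may therefore rest on those few libraries, and no conclusion is drawn from them.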
